A study of Mus musculus with 38 samples.

Results

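The 10 genes described are the circadian clock genes Per1, Per2, Per3, Ciart, Nr1d1, Nr1d2, Dbp, Arntl, Clock and Npas2, taken by gene name from the 46078 genes in the count tables. They were chosen by earlier results of these data, namely the values of Per2 in knockout and control mice before treatment, so that contrast is given below as a description, with no test. All 10 genes were found, and all 10 passed the filter on low counts in every comparison.

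RNA sequencing counts came from 38 libraries of isolated mouse intestinal epithelial cells. The series text calls the material colon tissue, and the sample labels call it isolated intestinal epithelial cells. Epcam lay between 1250 and 1920 CPM in every library, where CPM is counts per M (mega) of a library's size after TMM scaling, and Vil1, also an epithelial gene, between 594 and 1180 CPM. All mice were C57BL/6. KO mice carried a floxed Hk2 allele deleted by Cre under the Villin promoter, which is active in gut epithelium, and the study calls this genotype Hk2∆IEC. WT mice were littermates with floxed Hk2 alleles, labelled Hk2 flox/flox, so the controls carried the floxed alleles too. Hk2 encodes hexokinase 2, an enzyme of the first step of glycolysis. Mice were untreated (day 0) or had received dextran sodium sulfate (DSS), which injures the gut epithelium, at 1.5% in drinking water for 3 or 7 days. Treated mice were males of 10 to 12 weeks, and both genotypes shared cages. For untreated mice the labels name an age of 9 to 11 weeks and one of 86 to 92 weeks, and do not tell which applied to day 0. There were 4 WT and 5 KO libraries on day 0, 7 WT and 8 KO on day 3, and 7 WT and 7 KO on day 7. Mice lived under a 12-h light cycle, and the labels give no time of day at which a mouse was killed. Each library is named by its title, with the day, the genotype and a number. The labels do not state that each library is a separate animal, so p-values measure the spread between these libraries, which may be partly technical.

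The clock is a loop of transcription factors found in most cells. Arntl (also called Bmal1) pairs with Clock or its paralog Npas2, and the pair switches on genes that carry an E-box in their promoters. Among these are the Per genes and Ciart, whose proteins repress the pair, and Nr1d1 and Nr1d2 (Rev-erb alpha and beta), which repress Arntl through ROR elements. Dbp is a direct output of the pair and activates genes through D-boxes. The loop therefore puts Arntl and the E-box genes at opposite phases of the day, and it is known to run in gut epithelium. The genes lie on 7 chromosomes of build GRCm38, named in the submitters' processing notes, with coordinates as the count files give them. Of the activators, Arntl (ENSMUSG00000055116) spans chr7:113207465-113314122 on the plus strand, Clock (ENSMUSG00000029238) spans chr5:76209868-76304792 on the minus strand and Npas2 (ENSMUSG00000026077) spans chr1:39193731-39363236 on the plus strand. Of the repressors of the activators, Per1 (ENSMUSG00000020893) spans chr11:69095217-69109960 on the plus strand, Per2 (ENSMUSG00000055866) spans chr1:91415982-91459324 on the minus strand, Per3 (ENSMUSG00000028957) spans chr4:151003652-151044665 on the minus strand and Ciart (ENSMUSG00000038550) spans chr3:95878503-95882251 on the minus strand. Of the repressors of Arntl, Nr1d1 (ENSMUSG00000020889) spans chr11:98767932-98775333 on the minus strand and Nr1d2 (ENSMUSG00000021775) spans chr14:18204054-18239127 on the minus strand. The output gene Dbp (ENSMUSG00000059824) spans chr7:45705088-45710155 on the plus strand.

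Promoters were searched because the genes differ in which of these elements they carry. Windows of 300 bases, from 250 before to 50 after a start site, came from RefSeq on build GRCm38.p6. The table held 13 windows for 9 of the 10 genes; Per2 had no match. Each motif was searched on both strands. The E-box CACGTG was in 7.15% of all 32851 windows, the E-prime box CACGTT in 4.68%, the D-box TTATGNAA in 3.38%, the ROR element core TAGGTCA in 2.61% and the cAMP response element TGACGTCA in 1.79%. The first 4 of these sequences show the 250 bases before the start site of each gene with a match there. The fifth shows 27 bases around the match in Arntl, which begins at base 31 when a start site is counted as base 1. Capitals mark the matches, and each sequence runs 5′ to 3′ along the gene.
Per1, chr11:69098699-69098948, plus strand: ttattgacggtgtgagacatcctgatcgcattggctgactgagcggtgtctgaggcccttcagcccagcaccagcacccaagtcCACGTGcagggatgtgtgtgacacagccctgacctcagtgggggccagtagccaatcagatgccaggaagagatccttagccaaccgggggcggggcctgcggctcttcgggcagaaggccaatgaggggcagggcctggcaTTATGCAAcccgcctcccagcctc
Per3, chr4:151044666-151044915, minus strand: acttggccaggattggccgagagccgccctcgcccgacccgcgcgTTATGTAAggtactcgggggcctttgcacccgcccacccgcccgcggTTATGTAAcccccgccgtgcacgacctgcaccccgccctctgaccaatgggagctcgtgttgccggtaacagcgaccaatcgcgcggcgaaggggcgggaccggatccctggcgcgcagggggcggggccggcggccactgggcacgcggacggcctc
Ciart, chr3:95882229-95882478, minus strand: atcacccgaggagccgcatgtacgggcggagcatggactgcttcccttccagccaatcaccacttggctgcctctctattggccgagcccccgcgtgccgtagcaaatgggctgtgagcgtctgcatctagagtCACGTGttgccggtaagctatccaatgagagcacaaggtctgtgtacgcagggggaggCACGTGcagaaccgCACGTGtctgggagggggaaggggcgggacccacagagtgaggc
Nr1d1, chr11:98775378-98775627, minus strand: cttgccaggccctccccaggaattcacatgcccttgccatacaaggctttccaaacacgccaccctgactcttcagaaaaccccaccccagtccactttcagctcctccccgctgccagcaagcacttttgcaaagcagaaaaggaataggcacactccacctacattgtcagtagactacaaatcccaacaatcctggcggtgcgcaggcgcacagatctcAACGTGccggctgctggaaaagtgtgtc
Arntl, chr7:113207531-113207557, plus strand: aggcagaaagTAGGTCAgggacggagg
Ciart held 3 E-boxes, 116, 58 and 44 bases before the start site. Per1 held 1 E-box 166 bases before it and 1 D-box 24 bases before it. Per3 held 2 D-boxes, 205 and 158 bases before it. Nr1d1 held 1 E-prime box 28 bases before it, read on the opposite strand. The windows of Nr1d2, Dbp, Clock and Npas2 held none of these motifs, and no window of the 9 genes held the cAMP response element. A match is a description of the letters and no evidence of binding.

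Total counts ran from 10.5 M to 60.6 M, and the median library held 43.2 M. The level of 3 counts, taken as the lowest a library could show, was 0.0452 to 0.352 CPM at library sizes after TMM scaling of 8.53 M to 66.3 M, and it covers counting error only. Counts of the 10 genes ran from 6 for Ciart in a day 0 library to 14372 for Nr1d1. The targeted gene Hk2 had 254 to 449 CPM in WT and 33.1 to 118 CPM in KO on day 0. On day 3 it had 97.0 to 220 CPM in WT, where d3_WT_346 had 97.0 CPM and the others had 143 to 220 CPM. On day 7 it had 228 to 611 CPM in WT and 56.1 to 268 CPM in KO, which overlap. The library labelled d3_KO_345 had 435 CPM of Hk2, against 68.4 to 128 CPM in the other 7 KO libraries of day 3, so its label is in doubt. It also lay above every WT library of that day. The 97.0 CPM of d3_WT_346 lay inside the range of those 7 KO libraries, so this label is in doubt as well, and the library was kept as WT. The library labelled d7_KO_420 had 268 CPM of Hk2, inside the WT range of day 7, while the other 6 KO libraries of that day had 56.1 to 195 CPM. Its label is in doubt too. It also stood apart from its group in 7 of the 10 clock genes. In neutrophil markers d3_KO_345 and d7_KO_420 were each the highest of their group, with a mean log2 CPM of 2.547 and 6.643. The other KO libraries had -2.93 to -0.473 on day 3 and 2.301 to 4.925 on day 7. A wrong label and Hk2 reads from cells other than epithelium cannot be told apart here. Directions between genotypes rest on these labels. The calls that rest on d3_KO_345 or d7_KO_420 are given with and without that library. The fits without them were chosen after the data were seen. Day 0 libraries carry another kind of library name than those of days 3 and 7, so day and library series cannot be told apart. Reads were counted without regard to strand. Of the exon bases of Nr1d1, 8.55% overlap Thra on the opposite strand, and of those of Dbp, 16.7% overlap Sphk2, so reads of these pairs cannot be told apart there. In bulk samples, fewer cells of a type and less RNA per cell cannot be told apart.

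**Figure D1:**
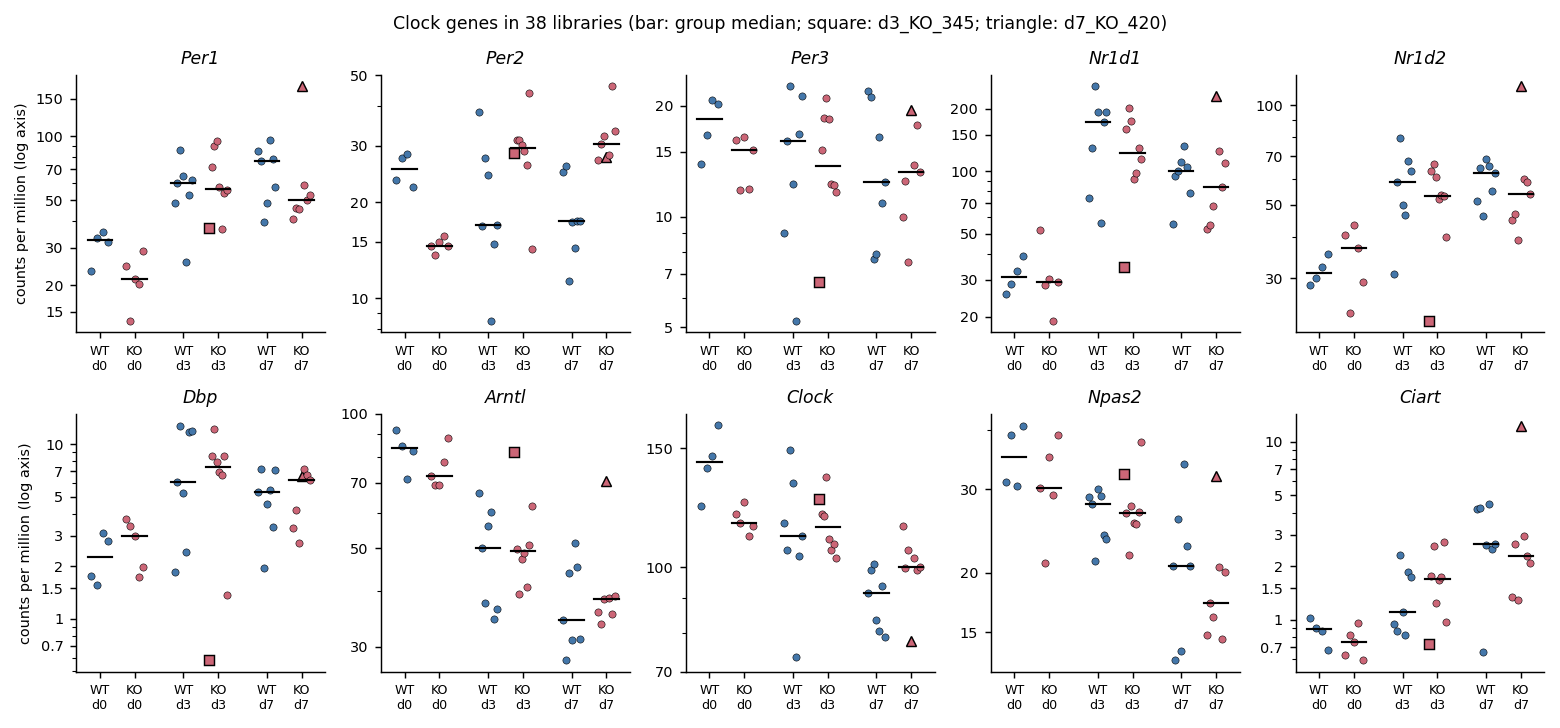
CPM of the 10 clock genes in each of the 38 libraries, by genotype and day, on log axes; points are libraries, bars are group medians, the square is d3_KO_345 and the triangle d7_KO_420. Per2 is lower in KO than in WT on day 0 and higher on day 7 with no overlap, and Nr1d1 is above its day 0 WT values in every WT library of days 3 and 7.

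Levels were compared between genes per length, as CPM per kilobase of exon (RPKM). In untreated WT mice Arntl was highest at 28.5 ± 2.92 RPKM (SD, n = 4), followed by Clock at 10.4 ± 1.19 and Nr1d1 at 10.3 ± 1.91. Clock and Nr1d1 did not differ beyond their spread. In WT mice on day 3 Nr1d1 was highest at 49.8 ± 23.0 RPKM (SD, n = 7) and Arntl came next at 16.8 RPKM. Nr1d2 at 11.3 RPKM, Per1 at 10.2 RPKM and Clock at 8.24 RPKM followed, each within the spread of its neighbour. Npas2 stood at 5.5 RPKM, Per2 at 3.59 RPKM, Dbp at 2.53 RPKM and Per3 at 1.54 RPKM, and Ciart was lowest at 0.609 RPKM.

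The SD of log2 CPM within groups, over the 29 libraries of days 3 and 7, was set against that of the 10546 genes with a mean log2 CPM of at least 2. It was 1.06 for Dbp, which exceeded that of 99.4% of those genes. It was 0.821 for Ciart and 0.71 for Nr1d1, above 98.5% and 97.6% of them. Ciart itself had a mean log2 CPM of 0.975, below that limit, so it was set against genes of higher level. Dbp had a mean of 2.35, near the limit, and most of the genes it was set against may be of higher level. Relative to its group mean, log2 CPM of Dbp was -2.94 in d3_KO_345. The SD without that library was not computed. Per3 at 0.597, Per1 at 0.562, Per2 at 0.485 and Nr1d2 at 0.438 also lay above at least 90.3% of those genes. The activators varied less, at 0.354 for Arntl, 0.344 for Npas2 and 0.205 for Clock. The median over the 10546 genes was 0.226.

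Per2, a repressor of the loop, was the gene by which the set was selected. Before treatment it had 23.4, 27.4, 28.3 and 22.3 CPM in the 4 WT libraries. It had 14.6, 13.6, 15, 15.6 and 14.6 CPM in the 5 KO libraries. Every KO library was below every WT library, and the log2 fold change of KO over WT was -0.80. The share of all genes whose groups do not overlap was not computed, for this or any later comparison. Per1 had 23.3 to 35.4 CPM in WT and 13.6 to 28.9 CPM in KO, and its log2 fold change was -0.52. The other 8 genes had log2 fold changes from -0.32 for Per3 to 0.26 for Dbp, and each overlapped between genotypes. Markers of small intestine tended to be higher in KO on day 0, but the genotypes overlapped. The mean log2 CPM of these markers was -0.85 to 0.52 in WT and 0.51 to 3.76 in KO. Of the 8 markers 5 passed the filter there, and Apoa1 had 0.145 to 1.42 CPM in WT and 0.865 to 75.0 CPM in KO. Their part in the day 0 values of Per2 was not tested.

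On day 7 of DSS the genotypes stood the other way round in Per2. WT libraries had 11.3 to 26 CPM with a median of 17.4, and KO libraries had 27.1 to 46.1 CPM with a median of 30.4. Every KO library lay above every WT library. The log2 fold change was 0.81 ± 0.17 (SE), a 1.75-fold higher level, but it did not pass the threshold over all genes (edgeR quasi-likelihood test, adjusted p = 0.291). None of the 10 genes was called, against 0.00642% of all genes. Per2 alone of the 10 had an unadjusted p under 0.05. DESeq2 called Per2 with an adjusted p of 0.0092, and edgeR with all 38 libraries in a single fit gave 0.0951. Leaving out each library in turn kept the log2 fold change between 0.70 and 0.91 and the adjusted p between 0.0665 and 0.559, and the lowest of these p came without d7_KO_420, with 0.84. The numbers in the titles fall into 4 separate ranges on days 3 and 7, which groups do not share evenly. The ranges were split here at gaps of more than 10, and the labels do not name them as batches. In the lowest range KO had 27.1 to 32.3 CPM and WT 11.3 to 26 CPM. In the third range KO had 27.6 to 46.1 CPM and WT 17.4 to 17.5 CPM. The second range held no KO library of day 7. With the range as a covariate the log2 fold change was 0.74 (adjusted p = 0.758).

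None of the other 9 genes had an unadjusted p under 0.05 on day 7. Clock had a log2 fold change of 0.16 ± 0.09 (SE, adjusted p = 0.442). Ciart had 0.21 ± 0.50, Npas2 -0.16, Arntl 0.13, Nr1d1 0.09, Dbp 0.08, Per3 -0.06, Per1 -0.04 and Nr1d2 0.0042. All 9 overlapped between genotypes. When each library was left out in turn, Ciart ran from -0.53 to 0.36 and Per1 from -0.47 to 0.06, with the lowest value of each without d7_KO_420, so neither had a fixed direction. Without that library Per1 at -0.47 (adjusted p = 0.131) and Clock at 0.21 (adjusted p = 0.108) had an unadjusted p under 0.05 as Per2 did, and still none of the 10 was called.

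On day 3, too, none of the 10 genes was called between genotypes, against 0.00647% of all genes, and none was called by DESeq2 either. All 10 overlapped and none had an unadjusted p under 0.05. Per2 had 8.49 to 38.4 CPM in WT, with a median of 16.9, and 14.3 to 44.1 CPM in KO, with a median of 29.6. Its log2 fold change of 0.48 ± 0.26 (SE) was the largest of the set (adjusted p = 0.625). The other genes ran from -0.28 for Nr1d1 to 0.27 for Ciart. The lowest WT value of Per2, 8.49 CPM, was in d3_WT_381, which was also lowest of day 3 in Per1, Per3 and Clock. That library had 19084 genes detected, the fewest of all libraries. With each of the 15 libraries left out in turn, none of the 10 was called. Without d3_KO_345, Per2 had 0.49 and Nr1d1 -0.14, and again none was called. From day 3 to day 7 the genotype difference of Per2 shifted by 0.32 ± 0.33 (SE, edgeR interaction, adjusted p = 1), and by 0.31 without d3_KO_345 and 0.36 without d7_KO_420. The interaction called none of the 10 genes, against 0% of all genes, and 440 of 16371 genes but none of the 10 had an unadjusted p under 0.05. DESeq2 called none either.

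**Figure D2:**
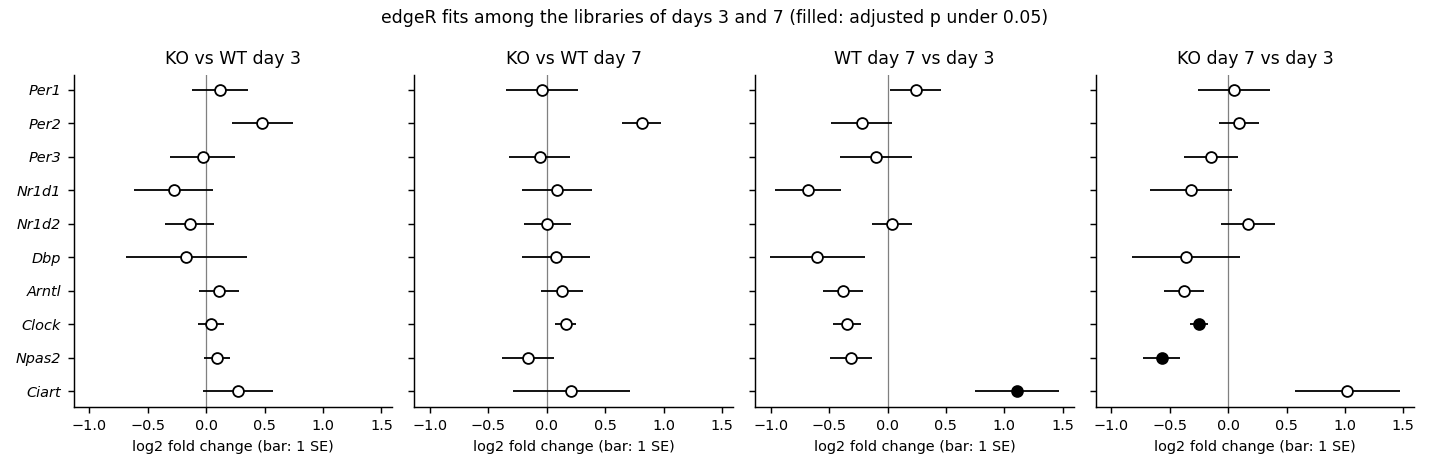
Log2 fold changes of the 10 clock genes with their standard errors, for KO over WT on days 3 and 7 and for day 7 over day 3 in each genotype. Per2 at 0.81 on day 7 is the largest genotype difference. Ciart at 1.11 in WT, and Npas2 at -0.57 and Clock at -0.25 in KO, are called between days.

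Between days 3 and 7 of DSS, 1 of the 10 genes was called in WT, against 19.3% of all genes, and it was higher, as were 10.6% of all genes, while 8.70% were lower. This was Ciart, the E-box-driven repressor, which had 0.822 to 2.31 CPM on day 3 (median 1.1) and 0.662 to 4.44 CPM on day 7 (median 2.67). Of the day 7 libraries 6 of 7 were above the day 3 range, but d7_WT_370 at 0.662 was the lowest of all 14. The log2 fold change was 1.11 ± 0.36 (SE, adjusted p = 0.0393), a 2.15-fold rise. With the range of title numbers as a covariate it was 1.39 and no longer called (adjusted p = 0.0767). It was called in 5 of the 14 fits that left out a library. Clock missed the threshold with -0.35 ± 0.12 (adjusted p = 0.0522), and DESeq2 called it (adjusted p = 0.0404). Nr1d1 had -0.68 ± 0.28 (adjusted p = 0.11), Arntl -0.38 ± 0.17 (adjusted p = 0.143) and Npas2 -0.31 ± 0.18 (adjusted p = 0.255). Per1, Per2, Per3, Nr1d2 and Dbp had log2 fold changes from -0.60 to 0.24.

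In KO 2 of the 10 genes were called between days 3 and 7, against 19.3% of all genes, and both were lower, as were 8.83% of all genes. These were Npas2 and Clock, and the count lay near the share of all genes called. Npas2 had 21.8 to 37.6 CPM on day 3 (median 26.8) and 14.5 to 32 CPM on day 7 (median 17.3). The ranges overlapped through d7_KO_420 at 32 CPM, since the next highest day 7 library had 20.6. Npas2 fell by 0.57 on the log2 scale (SE 0.16, adjusted p = 0.017) and was called in all 15 fits that left out a library. Clock had 103 to 136 CPM on day 3 and 77.7 to 115 CPM on day 7. It fell by 0.25 (SE 0.08, adjusted p = 0.0358), and was called in 8 of those 15 fits. Without d3_KO_345 Clock had -0.24 (adjusted p = 0.0512) and was not called, and Npas2 had -0.55 (adjusted p = 0.0271). Arntl had -0.38 ± 0.17 (adjusted p = 0.144), and without d7_KO_420 it fell by 0.55 (adjusted p = 0.00849). Ciart had 1.02 ± 0.45 (adjusted p = 0.134), and 0.29 without d7_KO_420, so this library set its size. Immune markers rose over the same days, 6 of 9 in WT, against 10.6% of all genes, and 9 of 9 in KO, against 10.5%, as did all 7 neutrophil markers in each genotype. In KO 8 immune and 7 neutrophil markers rose without d3_KO_345, and 9 and 6 without d7_KO_420. The mean log2 CPM of the neutrophil markers went from -3.17 to -1.47 on day 3 to 3.11 to 6.67 on day 7 in WT. In KO it was -2.93 to 2.55 on day 3, with the highest value in d3_KO_345, and 2.30 to 6.64 on day 7. Their part in the clock gene changes was not tested.

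The treated groups were also set against day 0, with which the library series changed too, and comparisons of 1 genotype share their day 0 libraries. Per2 is left out of the counts here because its day 0 values chose the set. In WT on day 3, 6 of the other 9 genes were called, against 46% of all genes. The 4 higher ones, against 20.4% of all genes, were Per1, Nr1d1, Nr1d2 and Dbp, and the 2 lower ones, against 25.6%, were Arntl and Npas2. Nr1d1 had 25.8, 28.7, 33.1 and 39.3 CPM on day 0 and 56.7 to 256 CPM on day 3, with a median of 173. No day 3 library reached down to day 0, and the log2 fold change was 2.25 ± 0.36 (SE, adjusted p = 0.000191). Arntl, the gene its protein represses, had 91.9, 84.8, 71.5 and 82.7 CPM on day 0 and 34.7 to 66.6 CPM on day 3. It fell by 0.78 (SE 0.17, adjusted p = 0.00256), again with no overlap. Dbp rose by 1.68 ± 0.52 (adjusted p = 0.0165) but overlapped, since it had 1.56 to 3.12 CPM on day 0 and 1.86 to 12.8 CPM on day 3. Per1 rose by 0.87 and Nr1d2 by 0.83, and Npas2 fell by 0.44.

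In WT on day 7, 8 of the 9 genes were called, against 56.9% of all genes. The 5 higher ones, against 27.8% of all genes, were Ciart at 1.80, Nr1d1 at 1.58, Per1 at 1.12, Dbp at 1.08 and Nr1d2 at 0.87 on the log2 scale. The 3 lower ones, against 29.2%, were all activators, Arntl at -1.15 (adjusted p = 4.79e-05), Npas2 at -0.74 and Clock at -0.70. Per3 was not called, at -0.38 (adjusted p = 0.269). Per1, Nr1d1 and Nr1d2 lay above day 0 in every library and Arntl and Clock below it. The share of all genes that did so was not computed.

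In KO on day 3, 5 of the 9 genes were called, against 46.3% of all genes. The 4 higher ones, against 22.6%, were Nr1d1 at 1.98, Per1 at 1.52, Ciart at 1.17 and Nr1d2 at 0.57 (adjusted p = 0.0451), and the lower one, against 23.7%, was Arntl at -0.51. Without d3_KO_345 Dbp was called as well, at 1.42 (adjusted p = 0.00911), and Nr1d2 stood at 0.68. In KO on day 7, 8 of the 9 were called, against 54.6% of all genes. The 5 higher, against 27.3% of all genes, were Ciart at 2.21, Nr1d1 at 1.67, Per1 at 1.58, Dbp at 0.90 and Nr1d2 at 0.75. The 3 lower, against 27.3%, were Arntl at -0.88, Npas2 at -0.70 and Clock at -0.25. Per3 had -0.12 (adjusted p = 0.644). Without d7_KO_420 the same 8 genes were called, with Ciart at 1.46, Nr1d1 at 1.34, Per1 at 1.15, Dbp at 0.84, Nr1d2 at 0.51, Clock at -0.20, Npas2 at -0.87 and Arntl at -1.05. Per2 is given without a test: it stood at -0.28 and -0.49 in WT on days 3 and 7, and at 1.01 and 1.11 in KO.

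Within groups, libraries differed together in many of these genes. Log2 CPM was taken relative to the mean of its own genotype and day, so the relations below are between libraries of 1 group. Over the 29 libraries of days 3 and 7, 18 of the 45 pairs were called after adjustment over the 45, 16 positive and 2 negative. The share of called pairs among other genes was not computed, so the counts of pairs here and below have no background beside them. By rank correlation 18 were called, and 17 by both. All 15 pairs among Per1, Per3, Ciart, Nr1d1, Nr1d2 and Dbp were among them, with r from 0.53 to 0.84. These 6 genes were grouped after their correlations were seen. The closest pairs were Nr1d1 with Nr1d2 (r = 0.84, rho = 0.79) and Nr1d2 with Dbp (r = 0.84, rho = 0.84), with permutation p of 2e-05 and 1e-05, the latter the smallest that 100000 permutations can give. Without the 2 libraries farthest from the median of the first gene, r was 0.81 and 0.87. All 15 pairs were called without d3_KO_345 too, with r from 0.49 to 0.78, and without d7_KO_420, with r from 0.46 to 0.93. With the range of title numbers removed as well, over 28 libraries, 11 of the 15 were called. Per1 with Dbp, Per3 with Nr1d1, Nr1d1 with Dbp and Nr1d1 with Ciart were not, at r of 0.49, 0.50, 0.65 and 0.46 (adjusted permutation p from 0.0539 to 0.155). Of the 15, 7 were called in the WT libraries alone and 14 in the KO libraries alone.

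Per2 had no called pair with the other repressors or Dbp over the 29 libraries. Its r was 0.30 with Per1, 0.37 with Per3, 0.0758 with Nr1d1, 0.0054 with Nr1d2, 0.29 with Dbp and 0.30 with Ciart, and none was called (adjusted permutation p at least 0.157). Its 1 called pair was with Npas2, at r = -0.39 (adjusted permutation p = 0.0441) and rho = -0.38, which was not called by rank (adjusted p = 0.0871). Without the 2 farthest libraries r was -0.50. With Clock r was 0.52 and the adjusted permutation p was 0.0502, and Clock was in no called pair over the 29 libraries. Without d7_KO_420 Per2 was called with Ciart (r = 0.44), Clock (r = 0.53) and Npas2 (r = -0.40), and Clock with Per1 (r = 0.50), each with an adjusted permutation p of 0.0485. Per2 with Per1 had r = 0.44 then and was not called (adjusted permutation p = 0.0713).

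The activators Arntl and Npas2 moved together, with r = 0.82 and rho = 0.85 (adjusted permutation p = 6.43e-05 for r and 9e-05 for rho), and r was 0.79 without the 2 farthest libraries. Dbp and Arntl, the output and the activator of the loop, moved in opposite directions. Their r was -0.65 and their rho -0.64 (adjusted permutation p = 0.000935 and 0.00201), and r was -0.55 without the 2 farthest libraries.

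**Figure D3:**
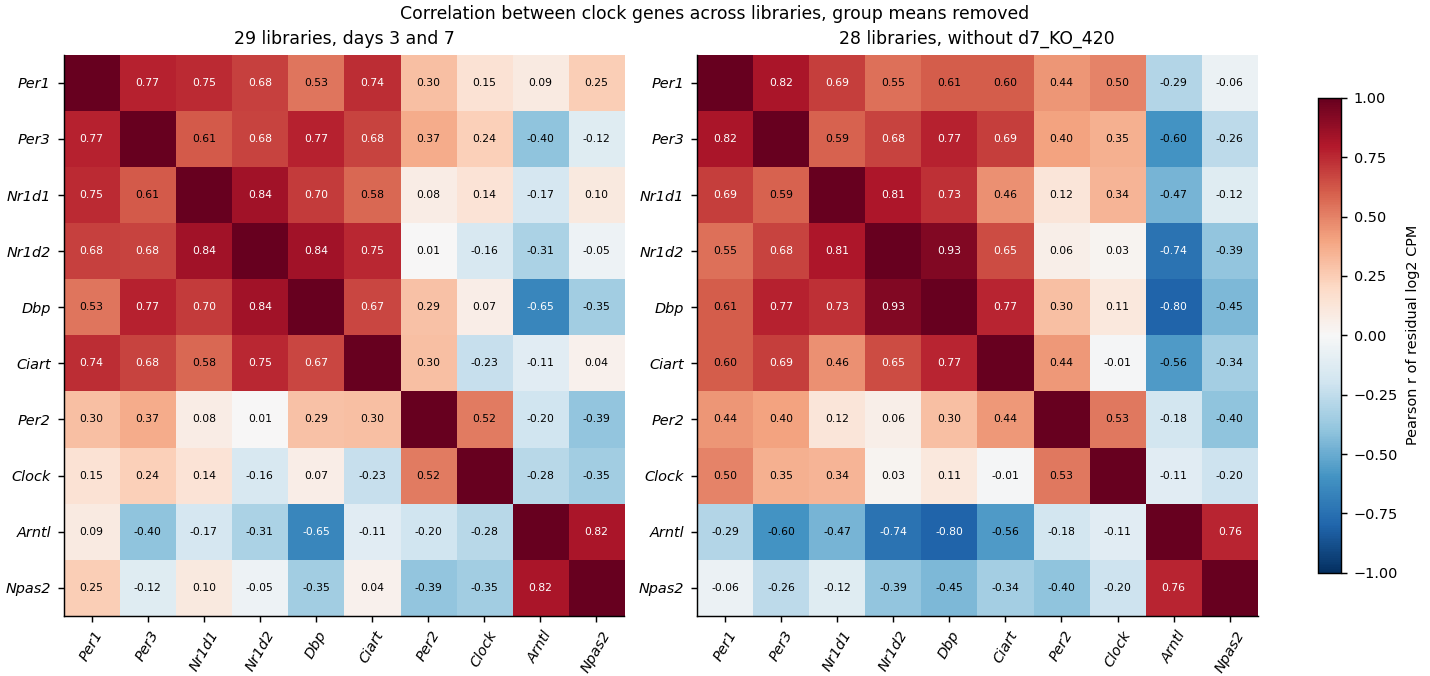
Pearson r of log2 CPM relative to group means, for each pair of the 10 clock genes over the 29 libraries of days 3 and 7 (left) and over 28 without d7_KO_420 (right). On the left the 15 pairs among Per1, Per3, Ciart, Nr1d1, Nr1d2 and Dbp have r of 0.53 to 0.84, Dbp and Arntl have -0.65, and Per2 is near 0 with Nr1d1 and Nr1d2; on the right Dbp and Arntl have -0.80.

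The library d7_KO_420 bore on these relations because it was high in several E-box genes and in Arntl and Npas2 alike. It had 171 CPM of Per1, 231 of Nr1d1, 114 of Nr1d2 and 12.3 of Ciart, and also 70.7 of Arntl and 32 of Npas2, each the highest in its group. Clock at 77.7 CPM was the lowest. Per3 at 19.5 CPM was the highest too. Per2 at 27.6 CPM and Dbp at 6.62 CPM lay inside the range of the other KO libraries of day 7. Without this library 27 pairs were called over 28 libraries. Arntl then had r of -0.80 with Dbp, -0.74 with Nr1d2, -0.60 with Per3, -0.56 with Ciart and -0.47 with Nr1d1, all called, and Nr1d2 with Dbp had 0.93. These values were computed after the library was seen to stand apart.

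The relation of Dbp and Arntl was also taken by day. Over the 15 day 3 libraries r was -0.92 (adjusted permutation p = 0.00036) and 26 of the 45 pairs were called. Dbp had 0.582 CPM in d3_KO_345, 1.37 in d3_KO_392 and 1.86 in d3_WT_346, and Arntl was 82.3, 62.2 and 66.6 CPM there, the 3 highest levels of day 3. It had 12.8, 11.8 and 11.9 CPM in d3_WT_352, d3_WT_486 and d3_WT_487, where Arntl was 37.6, 34.7 and 36.5 CPM. The log2 level of Dbp relative to Arntl thus ran from -5.12 to -1.55 in WT and from -7.02 to -1.68 in KO on day 3. The ranges of the genotypes overlapped. Without d3_KO_345 r was -0.88 (adjusted permutation p = 0.0019). Over the 14 day 7 libraries r was -0.13 (adjusted permutation p = 0.736), and -0.41 without d7_KO_420 (adjusted permutation p = 0.43), and 12 and 6 pairs were called. The difference between the days was not tested. On day 7 the log2 level of Dbp relative to Arntl spanned less, from -4.45 to -1.95 in WT and from -3.8 to -2.39 in KO. On day 7 the KO libraries of the lowest range of title numbers had 2.72 to 4.19 CPM of Dbp. Those of the third range had 6.28 to 7.22 CPM. Over the 9 day 0 libraries, given as a description, Dbp with Arntl had r = -0.76, and r among the 15 pairs ran from -0.77 to 0.75 and 9 were positive.

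**Figure D4:**
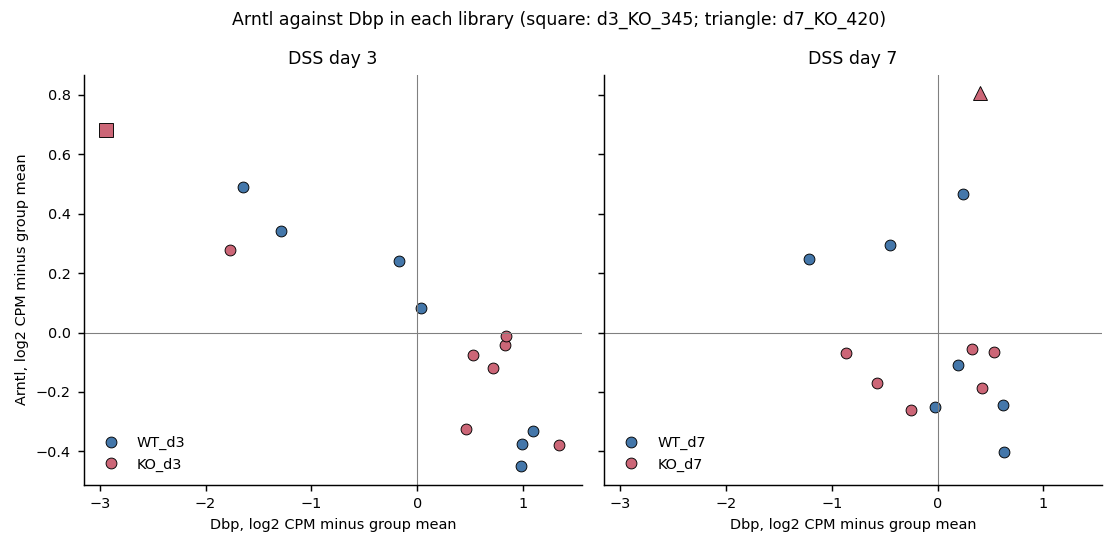
Arntl against Dbp in each library of day 3 (left) and day 7 (right), both as log2 CPM minus the mean of the library's genotype and day; the square is d3_KO_345 and the triangle d7_KO_420. On day 3 libraries low in Dbp are high in Arntl in both genotypes (r = -0.92), and on day 7 no such line is seen (r = -0.13).

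The genes most like Dbp and Arntl were found by r over the 29 libraries among 10537 genes, with the 10 clock genes themselves left out, and are given with no test. Nearest to Dbp was Tef, a paralog of Dbp, at r = 0.879. Also near Dbp were Pim3 at 0.752, Kcnk5 at 0.732 and Pck1 at 0.723. Nearest to Arntl were Mex3c at 0.768, Slc30a4 at 0.767, Rnps1 at 0.759, Ugcg at 0.757 and Epha2 at 0.756.

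The 10 genes were also set against total counts and the mean levels of epithelial, immune, stromal and small intestine markers, in 50 relations. Clock alone had called relations. It had r = -0.61 and rho = -0.54 with epithelial markers, -0.63 and -0.55 with small intestine markers, and 0.58 and 0.51 with the log2 total count. The adjusted permutation p was 0.0182, 0.0182 and 0.0315 for r, and 0.102 for each rho, so none was called by rank. Without d3_KO_345 3 of the 50 were called, without d7_KO_420 4 and without d3_WT_381 0. Without the 2 farthest libraries r was -0.46, -0.57 and 0.42. None of the 50 was called once the range of title numbers was removed as well. That fit also lacked d3_WT_381, which was alone in its group and range. Its result therefore cannot be told apart from that of leaving out this library. With d3_WT_381 left out and no range removed, r over the 50 ran from -0.53 to 0.51. The other 9 genes had no called relation to these measures over the 29 libraries.

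Of 16 other clock genes, 14 or 13 passed the filter in each comparison. None was called between genotypes on day 3 or day 7, or between days 3 and 7 in either genotype, by edgeR or by DESeq2. At an unadjusted p under 0.05 edgeR had 0 and 1 between genotypes on days 3 and 7, and 4 in WT and 2 in KO between days. Between days in KO, Fbxl21 fell by 0.92 without d3_KO_345. Without d7_KO_420 1 rose and 2 fell, among them Arntl2, which rose by 0.62, and Bhlhe40, which fell by 0.58. These 3 genes are named for those calls, after their values were seen. With all libraries the median log2 fold changes of the list lay from 0.0073 to 0.09. The medians over all genes lay from -0.0067 to 0.01. Against day 0, 4 rose and 4 fell in WT on day 3, where 20.4% of all genes rose and 25.6% fell, and 3 and 2 in WT on day 7, where 27.8% rose and 29.2% fell. In KO 4 rose and 3 fell on each day. Of all genes 22.6% rose and 23.7% fell in KO on day 3, and 27.3% each way on day 7. Without d3_KO_345, 4 rose and 4 fell in KO on day 3, and without d7_KO_420, 4 rose and 7 fell on day 7. Tef, like Dbp a D-box activator, rose by 1.06 and 1.72 in WT and by 1.18 and 1.70 in KO, on days 3 and 7. Bhlhe40, an E-box repressor, rose by 1.37 and 1.06 in WT and by 1.78 and 1.41 in KO. Cry1, the partner of the Per proteins, fell by 1.30 and 0.94 in WT. In KO it stood at -0.76 on day 3 (adjusted p = 0.0543) and fell by 0.75 on day 7. Nfil3, a repressor at D-boxes, rose by 0.95 in WT and 0.85 in KO on day 7.

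Of 11 genes known as clock outputs, 2 rose from day 3 to day 7 in WT, against 10.6% of all genes, Slc9a3 by 1.38 and Nampt by 0.41. In KO 1 rose, against 10.5%, Nampt by 0.39, and 1 fell, against 8.83%, Slc15a1, a peptide transporter, by 1.35. Without d3_KO_345 Cd36, a fatty acid receptor named after its value was seen, rose as well, by 2.99. Slc9a3 encodes a sodium-proton exchanger and Nampt an enzyme of NAD synthesis. None was called between genotypes on day 3 or day 7 by edgeR or DESeq2, and 0 and 1 had an unadjusted p under 0.05 by edgeR.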

How the data were processed

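Per the file headers, the authors made whole-number counts per gene with featureCounts 1.6.2 from paired reads, ignoring strand. 1 distinct command was used over the 76 deposited files. The submitters' processing notes name Trim Galore, STAR, featureCounts 1.5.2 and build GRCm38, and the annotation release is not given in the sources used here. Per the labels, the mRNA kit was stranded. Each library had 2 lanes, which were summed (r of log counts at least 0.989), giving 38 libraries. No 2 libraries of a group agreed within sampling noise (chi-square per degree of freedom at least 19.9).

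Groups followed the genotype and day in the labels. The clock genes and the gene lists were chosen with earlier results of these data known. All 10 clock genes are named in every comparison, with listed genes that were called and the 5 genes most like Dbp and Arntl. Some genes that this rule names are not reported here. Genes were tested with the quasi-likelihood test of edgeR 4.0.16 in R 4.3.3, on the compared groups alone, with TMM scaling, edgeR's filter on low counts and Benjamini-Hochberg adjustment over all genes tested. Genes with an adjusted p under 0.05 were called. Log2 fold changes are KO over WT or later over earlier day, with standard errors (SE). DESeq2 1.42.0 was an alternative, along with other scaling, no filter, lane 1 alone and a fit of all 38 libraries. Further alternatives were the range of title numbers as a covariate, and each library left out.

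Correlations used log2 CPM with a prior count of 2, less group means, and 100000 two-sided permutations of libraries within groups (scipy 1.17.1, numpy 2.4.6, pandas 2.3.3). CPM are counts per M (mega) of TMM-scaled library size over all 38 libraries. Marker levels are mean log2 CPM over a list. Figures were drawn with matplotlib 3.10.9. The scripts were tested on simulated data.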

Additional observations from a re-analysis of the deposited data

Results flagged for a closer look

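Of 60 groups of values (10 genes in 6 groups), 8 had a library far from the rest by Dixon's ratio at the 95% level. Chance gives about 1 in 20, that is 3 of 60. All 8 lay in KO on day 7, and 7 of them were the library d7_KO_420. It had 171 CPM of Per1 (next 59.0), 231 CPM of Nr1d1 (next 125), 114 CPM of Nr1d2 (next 59.7), 70.7 CPM of Arntl (next 39.0), 32 CPM of Npas2 (next 20.6) and 12.3 CPM of Ciart (next 2.95). Clock was low there, at 77.7 CPM (next 98.9). The mean log2 CPM of 8 glucocorticoid response genes was 7.05 in this library, and its part in these levels was not tested. The library d7_KO_422 had 46.1 CPM of Per2 (next 33.4).

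The genotype difference of Per2 pointed in opposite directions on days 0 and 7, with no overlap of the genotypes on either day. The log2 fold change of KO over WT was -0.80 on day 0 and 0.81 on day 7, which differ by 1.6. This difference was not tested, because the day 0 values were used to choose the genes, and the days differ in library series.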

How the results depend on the processing

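Of 1654 log2 fold changes under the alternatives, 1510 kept their direction and, where tested, their side of the threshold. A call was lost in 53 and gained in 15, and 74 changed sign. Another 2, of KO over WT on day 0, where nothing was tested, kept their sign but moved by at least the SE. The cause of the changes was not tested. No paired analysis was made, because no title number is shared between groups. DESeq2 called 1 clock gene between genotypes on day 7 where edgeR called 0, and 99 genes in all where edgeR called 1. The fit of all 38 libraries called 38 genes there and the fit without a filter 2. On day 3, 0 genes were called with the number range as a covariate. For day 7 over day 3 in WT, 2 clock genes were called with DESeq2's size factors, with all 38 libraries and with DESeq2. With the range as a covariate 0 were called, and 1556 of all genes (3002 without it). In KO 1 was called without a filter and with the range as a covariate. WT libraries alone gave 10 called pairs of clock genes (18 over both genotypes). Removing the range, which also dropped d3_WT_381, left 0 relations to library measures, and leaving out d3_WT_381 alone left 0 too. Leaving out each library gave 0 to 2 clock genes for the days in WT, 1 to 3 in KO, 17 to 27 pairs and 0 to 6 relations to measures. Over all genes it gave 0 to 1 on day 3 and 1 to 2 on day 7 between genotypes. With the range as a covariate these log2 fold changes turned sign: between genotypes on day 3, Per3 0.34, Nr1d1 0.10, Dbp 0.42 and Arntl -0.0324. On day 7 they were Nr1d1 -0.0124, Nr1d2 -0.0318, Dbp -0.10 and Ciart -0.0116. Between days they were Per3 0.40 in WT, and Per1 -0.77, Per2 -0.0614 and Nr1d2 -0.33 in KO. Nr1d1 on day 0 was 0.0066 with lane 1 alone and 0.0078 with all libraries, and Clock in KO on day 3 over day 0 was 0.064 without a filter. When a library was left out, values that crossed 0 ran as follows. On day 0 Nr1d1 ran from -0.26 to 0.13. Between genotypes on day 3, Per1 ran from -0.0058 to 0.25, Per3 from -0.18 to 0.10, Dbp from -0.36 to 0.0062 and Clock from -0.043 to 0.12. On day 7, Per1 ran from -0.47 to 0.0576, Per3 from -0.17 to 0.0719, Nr1d1 from -0.23 to 0.20, Nr1d2 from -0.23 to 0.0857, Dbp from -0.0564 to 0.20, Arntl from -0.0379 to 0.22 and Ciart from -0.53 to 0.36. Between days in WT, Per3 ran from -0.25 to 0.0308 and Nr1d2 from -0.0658 to 0.14. In KO, Per1 ran from -0.38 to 0.16, Per2 from -0.014 to 0.20 and Nr1d2 from -0.0616 to 0.25. In KO on day 3 over day 0, Per3 ran from -0.0948 to 0.12 and Clock from -0.0605 to 0.0316. Depth limits Ciart most, with 6 counts in the lowest library.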

Other observations

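Several clock genes are known to respond to signals other than the clock, so the 10 genes were also set against the mean levels of 8 glucocorticoid response genes, 10 immediate early genes and 7 genes of the temperature response. These 30 relations, over the 29 libraries of days 3 and 7 relative to group means, were chosen after the data were seen. The share of other genes with such relations was not computed. After adjustment over the 30, 16 were called, and 12 without d3_KO_345, 9 without d7_KO_420, 6 on day 3 alone and 3 on day 7 alone. Per1 followed the glucocorticoid response genes with r = 0.89 and rho = 0.85 (adjusted permutation p = 0.0003 and 0.00015). Its r was 0.81 without the 2 libraries farthest from the median, 0.82 without d7_KO_420, 0.85 on day 3 alone and 0.94 on day 7 alone. Nr1d1 followed the immediate early genes with r = 0.72 and rho = 0.79 (adjusted permutation p = 0.0003 and 0.00015), and with r = 0.69 without the 2 farthest libraries. Ciart followed the glucocorticoid response genes with r = 0.73 and rho = 0.64 (adjusted permutation p = 0.003 and 0.00339), and r was 0.56 without d7_KO_420. Per3 moved against the temperature genes with r = -0.65 and rho = -0.63 (adjusted permutation p = 0.00195 and 0.00339). The temperature list holds heat-induced and cold-induced genes, whose mean does not give a direction of temperature. Per2 had no called relation, with r = 0.25 for glucocorticoid response, 0.27 for immediate early and 0.15 for temperature genes.

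Against day 0, 9 of 10 immediate early genes rose on day 3 in each genotype, where 20.4% of all genes rose in WT and 22.6% in KO. On day 7, 4 of 10 rose in each, where 27.8% and 27.3% of all genes rose. From day 3 to day 7, 2 of the 10 fell in WT and 4 in KO, against 8.70% and 8.83% of all genes, and without d3_KO_345 5 fell in KO. Of glucocorticoid response genes 2 of 8 rose and 1 fell in WT and 1 rose in KO, and of temperature genes 1 of 7 rose in WT and 0 were called in KO. Over all genes 10.6% rose in WT and 10.5% in KO. In KO 1 rose and 1 fell without d3_KO_345, and 1 rose and 2 fell without d7_KO_420, among glucocorticoid response genes. Nr4a1 fell by 1.19 in WT and 1.67 in KO and Btg2 by 0.92 and 1.07, while Junb fell by 0.62 and Ier2 by 0.56 in KO. Among glucocorticoid response genes, Fkbp5, a chaperone of the receptor, rose by 1.5 in WT and 1.02 in KO. In WT Sgk1 rose by 0.78 and Klf9 fell by 0.64. Of the temperature genes Rbm3, a cold-induced RNA-binding protein, rose by 1.03 in WT. The temperature genes had a median log2 fold change of 0.94 for KO over WT on day 7, and 0 of 7 were called by edgeR or DESeq2, with 5 at an unadjusted p under 0.05 by edgeR. Members went opposite ways: the heat shock genes Hspa1a, Hspa1b and Hsph1 had 2.15, 2.16 and 1.97, and the cold-induced Cirbp and Rbm3 had -0.72 and -0.86. Their mean log2 CPM was 4.92 to 7.19 in WT and 5.15 to 7.45 in KO there, so the genotypes overlapped.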
